A study of Mus musculus with 9 samples.

Results

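DNA replication licensing, fork and nucleotide genes are a set of 44 mouse genes whose products load the replicative helicase at origins, start and run the replication fork, supply deoxynucleotides and place histones on new DNA. The members were fixed by gene symbol, and a gene was read on every probe set whose platform annotation gives that symbol alone. This found 42 of the 44 genes, on 76 of 22690 probe sets, among 12393 genes with such a probe set. Gins2 and Chaf1a had no probe set with a single symbol and were not analysed here. All 42 gene IDs stood under the same symbol in RefSeq's gene table for GRCm38.p6.

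The arrays measured 3 mouse lines, with 3 arrays each and 9 arrays in all. NIH 3T3, an immortal embryo fibroblast line with the genotype wild type, was the control. SV5 is a stable clone of NIH 3T3 made by transformation with SV40 (simian virus 40) large T antigen. SV5-NN4 is a stable clone that expresses both SV40 large T antigen and wild-type (wt) Nras. All cells were grown in medium with 10% calf serum, and all RNA was extracted with Trizol and labelled by the same one-cycle biotin procedure. The labels name no agent added to one group and not to another. Each transformed line is 1 clone, so a difference between lines cannot be told apart from a difference between clones. The labels do not give the promoter that drives Nras or the state of growth at harvest.

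Before S phase, the origin recognition complex with Cdc6 and Cdt1 loads the Mcm2 to Mcm7 ring onto DNA, a step called licensing that geminin blocks once S phase begins. The kinase of Cdc7 and Dbf4, with Mcm10, Cdc45 and the GINS complex, then turns the loaded ring into a moving helicase, and the polymerases follow with the sliding clamp, the clamp loader and the single-strand binding protein. Many of these genes are transcribed from the end of G1 into S phase under E2F factors, which the retinoblastoma proteins restrain, and large T antigen is known for binding the retinoblastoma proteins. A bulk RNA measure therefore reads both the share of cells in these phases and the level in each cell, and the 2 cannot be told apart here.

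The letters of E2F sites stood in the promoters of several members. In RefSeq's promoter table for GRCm38.p6, which gives 250 bases before to 50 bases after a gene's start, 37 of the 44 genes matched, with 44 promoters. The E2F letters TTTCCCGC, TTTCGCGC, TTTGCCGC or TTTGGCGC, on either strand, were in 12 member promoters (27.3%), against 2.26% of all 32851 promoters. The CCAAT box, letters CCAAT on either strand, was in 54.5% of member promoters and 37.4% of all. The cell cycle homology region, letters TTTGAA or TTCGAA, was in 22.7% against 19.2%, and the E-box CACGTG in 15.9% against 7.15%. The 12 were Cdc6, Cdt1, Lig1, Mcm3, Mcm5, Mcm6, Mcm7, Orc1, Pola1, Pold1, Pole2 and Rfc3. Of the 16 genes called higher in SV5-NN4 in either comparison, 14 had a promoter in the table and 4 held E2F letters, against 8 of the 22 measured and uncalled genes with a promoter. The stretches of those 4, Cdt1, Mcm3, Mcm7 and Pola1, are shown because the results describe these genes in full. They read 5′ to 3′ along the gene's own strand, with the motif in capitals and flanks of up to 11 bases.
Cdt1: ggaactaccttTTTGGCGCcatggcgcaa
Mcm3, first match: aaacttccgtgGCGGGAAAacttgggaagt
Mcm3, next match: acttgggaagtTTTGGCGCcaag
Mcm7, upstream match: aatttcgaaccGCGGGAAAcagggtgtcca
Mcm7, downstream match: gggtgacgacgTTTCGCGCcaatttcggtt
Pola1: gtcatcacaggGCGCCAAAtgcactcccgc
In GRCm38.p6 the Cdt1 stretch is chr8:122568036-122568064 on the plus strand, with its motif beginning at position 33, counting the start site as 1. The Mcm3 stretches are chr1:20820275-20820304 and chr1:20820263-20820285, both on the minus strand, with motifs beginning at positions 20 and 39. The Mcm7 stretches are chr5:138172030-138172059 and chr5:138171849-138171878 on the minus strand, with motifs beginning at positions -165 and 17. The Pola1 stretch is chrX:93632275-93632304 on the minus strand, with its motif beginning at position -138. A match is a run of letters and does not show that a factor binds there, and the arrays do not measure binding.

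Depth has no meaning on an array, and the number of arrays limits the precision. Array medians were 56.2 to 62.35 intensity units and upper quartiles 165.2 to 239.7. Of 10 fibroblast markers, 8 were above the level of the median probe set, 5.93 on the log2 scale, including Col1a1, Vim and Pdgfra. Fap and Lum were on average below that level. The summed intensity of the 10 was 24040 to 41580 on the NIH 3T3 arrays, 31940 to 47000 on those of SV5 and 21670 to 32070 on those of SV5-NN4. Col3a1 (-1.05), Pdgfra (-2.10) and Thy1 (-1.39) were lower in SV5-NN4 than in SV5 at an adjusted p under 0.05 in the paired limma fit. The other markers did not reach it, and of all 12393 genes 84 were lower. Sums over the markers of each of 6 other cell types were 72.95 to 377.8. Among these markers, Cdh1, Pecam1, Tek, Adipoq and Snap25 were at or below the floor on all arrays. Krt5, Cd3e, Ckm, Fabp4, Gfap and Sox10, in contrast, were on average at or above the level of the median probe set. Nras, the gene added to SV5-NN4, gave no check of the labels. Its brightest probe set differed between SV5-NN4 and SV5 by 0.06 (95% interval -0.28 to 0.4). Against NIH 3T3 it was higher by 0.717 in SV5 (95% interval 0.380 to 1.054) and by 0.778 in SV5-NN4 (0.441 to 1.115). Neither reached an adjusted p under 0.05 in limma. No source used here says whether this probe set covers the transcript that was added. Directions below therefore rest on the arrays as labelled.

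All values below are log2(intensity + 1) at a gene's brightest probe set, and array values are given in the order of replicates 1, 2 and 3. Differences are log2 differences from a two-sided limma test in which arrays of equal replicate number are paired, with the standard error (SE). A gene is called where the adjusted p is under 0.05 after Benjamini-Hochberg adjustment over all probe sets, and rose or fell is written only of called genes. Of the 42 members, Orc1, Cdc6, Rfc3 and Tyms lay below the median probe set level on average, and the floor set by 9 bacterial control probe sets was 3.18 to 4.25.

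Replication genes were highest in SV5-NN4. The mean of SV5-NN4 was the highest of the 3 line means for 42 of 42 members, and the lowest mean was that of NIH 3T3 for 27 and that of SV5 for 15. Relative to each gene's mean over the 9 arrays, the average member stood at -0.38 ± 0.5 (SD, n = 3) for NIH 3T3, -0.28 ± 0.24 for SV5 and 0.65 ± 0.35 for SV5-NN4. The NIH 3T3 arrays averaged 0.1, -0.9 and -0.34, the SV5 arrays -0.18, -0.56 and -0.09, and the SV5-NN4 arrays 0.58, 0.35 and 1.03. No SV5-NN4 array averaged as low as any array of the other lines, while NIH 3T3 and SV5 overlapped. Replicate 2 of NIH 3T3 held the lowest of the 9 values for 28 members, and replicate 3 of SV5-NN4 held the highest for 29.

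**Figure D1:**
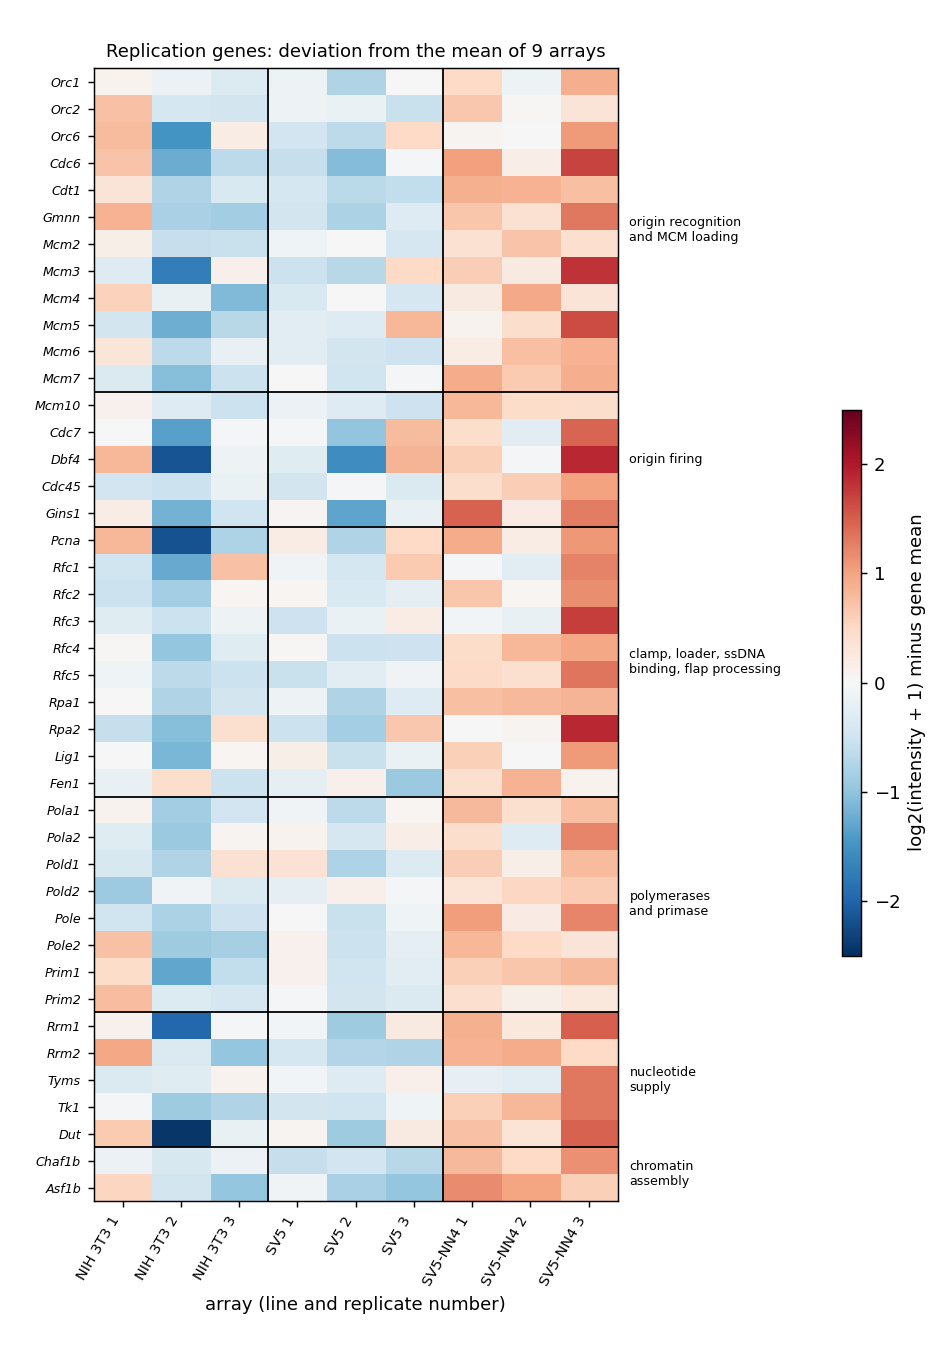
Deviation of each of the 42 measured replication genes (rows, grouped by role) from its own mean over the 9 arrays (columns, by line and replicate number), in log2 units at the brightest probe set. The 3 SV5-NN4 columns are mostly red, averaging 0.58, 0.35 and 1.03, and NIH 3T3 replicate 2 is the bluest column, averaging -0.9.

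The first comparison, of SV5 with NIH 3T3, asks which replication genes differ in the T antigen clone from its parent. None of the 42 members was called by limma in either direction with the replicate pairing or without it, where 0.0323% of all genes were called higher with it and 0.00807% without. At an unadjusted p under 0.05 the paired fit had 4 members higher (9.07% of all genes) and 0 lower, and the fit without pairing had 0 (1.89% of all genes). The median difference of the members was 0.11, against -0.03 for all genes, and 27 of 42 were above 0. All 3 replicate pairs were above 0 in 6 members (14.3%), a share near the 13.4% of all genes. The member medians by pair were -0.22, 0.31 and 0.28, so the first pair lay the other way from the rest.

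Among brightest probe sets, that of Mcm5, a subunit of the helicase ring, had the largest difference of SV5 from its parent. Its levels were 7.0, 7.35 and 8.54 in SV5-NN4, 6.62, 6.59 and 7.73 in SV5 and 6.45, 5.68 and 6.21 in NIH 3T3. The 3 SV5 arrays lay above the 3 NIH 3T3 arrays, which held for 1 of 42 members (2.38%, against 2.31% of all genes), with replicate 3 of SV5 far above the other 2. The difference was 0.87 (SE 0.3, 95% interval 0.15 to 1.58), with limma's adjusted p = 0.272. Other probe sets of the ring gave larger differences without a call. One of Mcm7 gave 1.35 (adjusted p = 0.11), one of Mcm6 gave 1.13 where its brightest gave -0.24, and one of Mcm2 gave 0.99 with arrays that did not overlap, where its brightest gave 0.15. At the low end of the brightest probe sets, Rrm2, the regulatory subunit of ribonucleotide reductase, differed by -0.52 (95% interval -1.27 to 0.23, adjusted p = 0.505). Without NIH 3T3 replicate 1, Pcna alone of the members was called in this comparison, while the share of all genes called higher was 0.153%. These intervals leave room for changes of over 1 log2 unit in several members, so a lack of calls does not show that levels were equal.

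The second comparison, of SV5-NN4 with SV5, asks which replication genes differ in a T antigen clone that also expresses wt Nras. All 42 members were above 0, against 52.2% of all genes, with a median difference of 0.90 (1.86-fold) against 0.01 for all genes, and a range from 0.27 for Rfc1 to 1.54 for Asf1b. Of the members 9 rose and 0 fell (21.4%, against 0.371% of all genes higher): Cdt1, Mcm7, Mcm10, Gins1, Rpa1, Fen1, Pole, Chaf1b and Asf1b. At an unadjusted p under 0.05, 35 of 42 were higher, against 7.32% of all genes. A difference of 1 log2 unit or more was reached by 18 members (1.15% of all genes). In 27 members all 3 SV5-NN4 arrays lay above all 3 SV5 arrays (4.74% of all genes), and 40 members were above 0 in all 3 pairs (22.0% of all genes), the exceptions being Rfc3 and Tyms. The member medians by pair were 0.70, 0.92 and 1.19.

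Without the replicate pairing limma called 0 of 42 members (0.00807% of all genes), with adjusted p of 0.0758 to 1 for the 9 genes, while 22 members were higher at an unadjusted p under 0.05 (2.59% of all genes). With the pairing, 0 members were called when any SV5 array or SV5-NN4 replicate 2 or 3 was left out. In those fits 0% of all genes were called higher, or 0.00807% without SV5 replicate 2. These counts of 0 are therefore not particular to the members. Leaving out SV5-NN4 replicate 1 gave 1 (Asf1b, 0.0484% of all genes). Leaving out NIH 3T3 replicate 1, 2 or 3 gave 28, 3 or 8 members, and keeping NIH 3T3 out of the fit gave 34. The share of all genes called higher moved too, to 2.44%, 0.129% and 0.573% without NIH 3T3 replicates 1, 2 and 3 and to 3.70% with NIH 3T3 kept out. All 42 differences stayed above 0 in each of these settings except that of Tyms without SV5-NN4 replicate 3. The log2 ratio of 3′ to 5′ probe sets, which rises as RNA is degraded, was higher in SV5-NN4 than in SV5 in every pair for Actb (4.07, 4.63 and 3.66 against 3.73, 4.33 and 2.42) and for Gapdh (2.66, 3.52 and 3.05 against 2.45, 3.03 and 2.36); its part in the result was not tested.

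**Figure D2:**
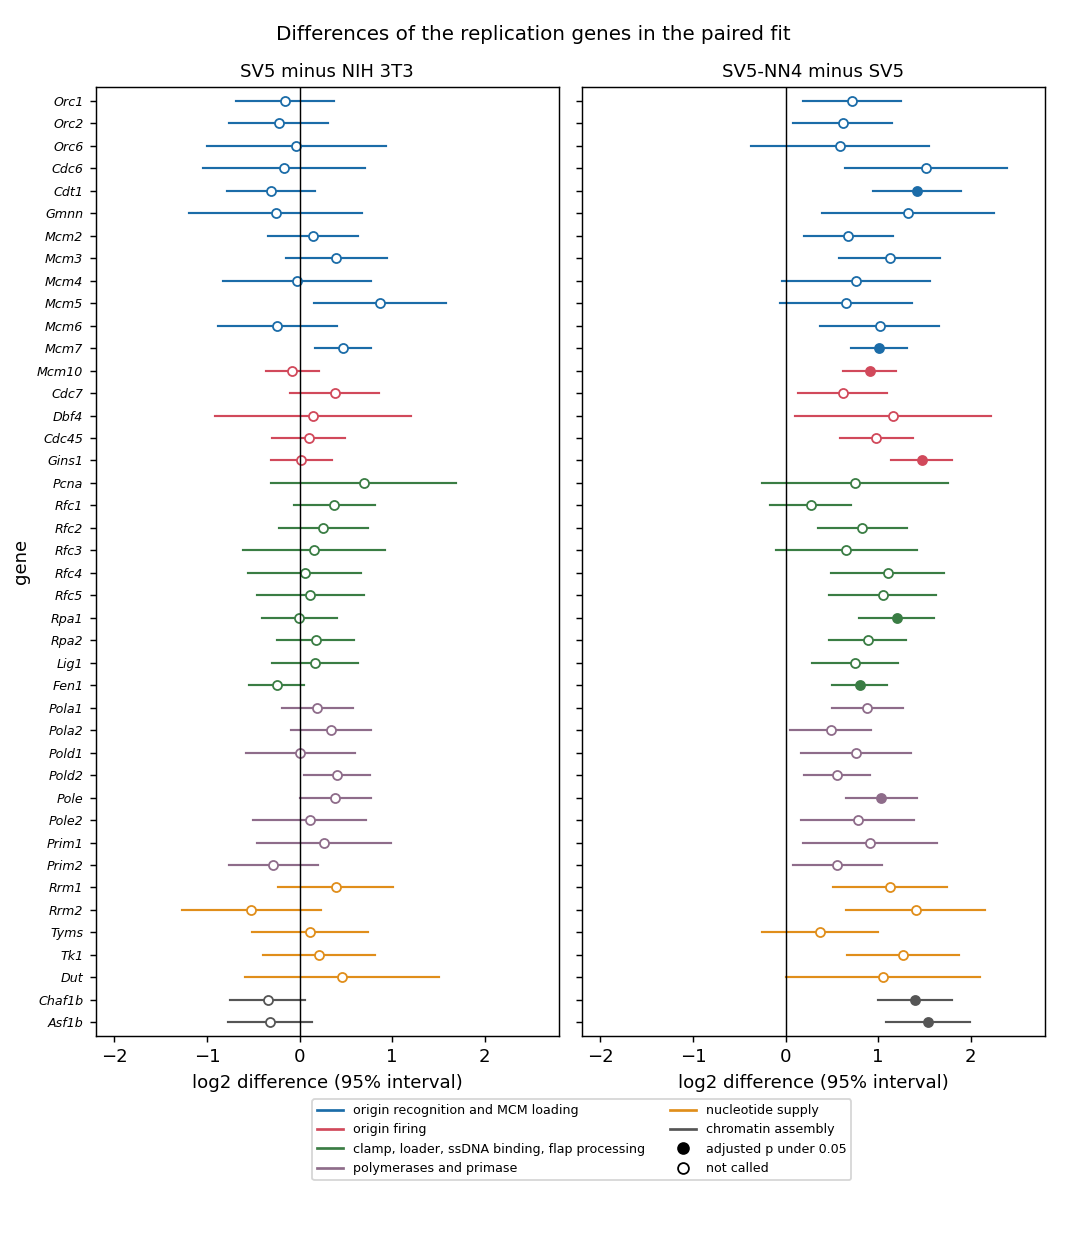
Log2 difference of each of the 42 measured replication genes with its 95% interval from the paired limma fit, for SV5 minus NIH 3T3 (left) and SV5-NN4 minus SV5 (right); colours give the role and filled points an adjusted p under 0.05. On the left the points lie on both sides of 0 with none filled, and on the right all 42 lie above 0 with 9 filled; the 2 panels share the SV5 arrays.

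The third comparison, of SV5-NN4 with NIH 3T3, sets the doubly altered clone against the parent and shares its arrays with the others, so it is no separate support for them. Of 42 members 15 rose and 0 fell (35.7%, against 1.27% of all genes higher), with a median of 1.07 (2.09-fold) against -0.03 for all genes. In addition to Cdt1, Mcm7, Mcm10, Gins1, Rpa1, Pole, Chaf1b and Asf1b, these were Mcm3, Cdc45, Rpa2, Pola1, Pold2, Rrm1 and Tk1. At an unadjusted p under 0.05, 37 members were higher (11.3% of all genes), and 23 reached 1 log2 unit (1.90% of all genes). The arrays did not overlap in 20 members (3.85% of all genes), and 34 were above 0 in all 3 pairs (18.0% of all genes). Without the pairing 0 were called (0.00807% of all genes), with adjusted p of 0.139 to 1 for the 15, and 24 were higher at an unadjusted p under 0.05 (3.37% of all genes). The paired fit on these lines alone, with SV5 kept out, called 0 members (0.00807% of all genes). The count was 32 without NIH 3T3 replicate 1 (4.12% of all genes), 0 without NIH 3T3 replicate 2 or SV5-NN4 replicate 2 or 3 (0.00807% in each case), and 2 without SV5-NN4 replicate 1 (0.0807%). It was 3 without NIH 3T3 replicate 3 (0.710%), and 3, 4 and 7 without SV5 replicates 1, 2 and 3 (0.315%, 0.299% and 0.654%). The 3′ to 5′ ratios of the NIH 3T3 arrays were 4.26, 4.43 and 5.06 for Actb and 2.65, 2.99 and 5.21 for Gapdh, so SV5-NN4 was neither above nor below NIH 3T3 in all 3 pairs for either.

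**Figure D3:**
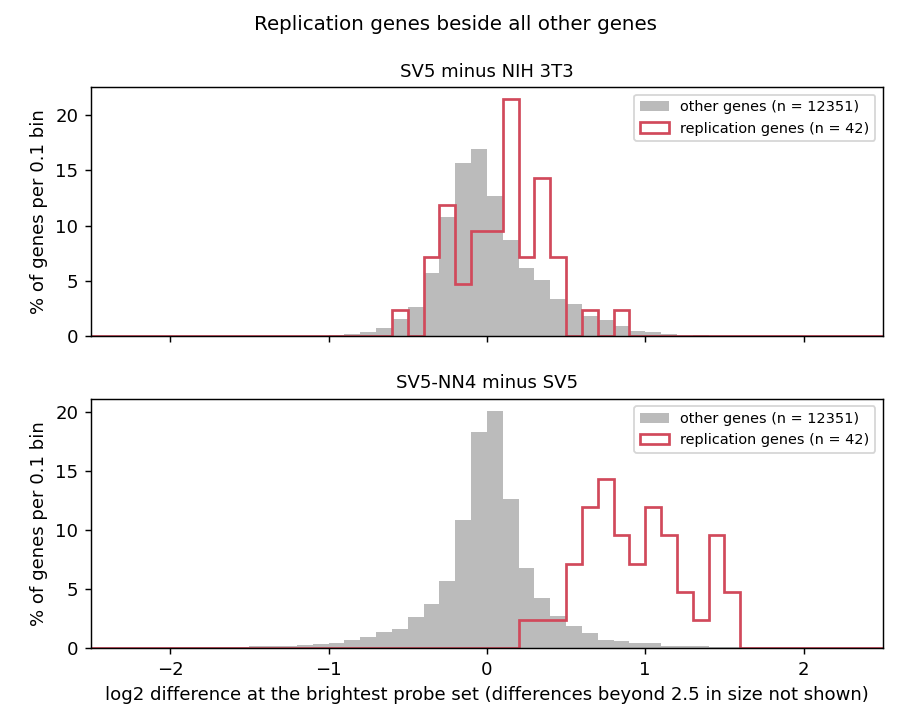
Distribution of log2 differences at the brightest probe set for the 42 replication genes (red outline) and the 12351 other genes (grey), as a percentage of genes per 0.1 bin, for SV5 minus NIH 3T3 (top) and SV5-NN4 minus SV5 (bottom). In the top panel the outlines overlap, with medians of 0.11 for the members and -0.03 for all genes, and in the bottom panel the members lie to the right, with medians of 0.90 and 0.01.

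Origin recognition and helicase loading genes comprised 12 members, with a median of 0.89 between SV5-NN4 and SV5. Of the 12, 2 were called, against 0.371% of all genes called higher. The medians of the same genes by pair were 0.71, 0.94 and 0.91. Between SV5 and NIH 3T3 their median was -0.10, with 4 of 12 above 0.

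Cdt1, the factor that brings the Mcm ring to origins, carried levels of 10.71, 9.63 and 10.0 in NIH 3T3, 9.95, 9.71 and 9.77 in SV5 and, in SV5-NN4, 11.28, 11.26 and 11.15. The 3 SV5-NN4 arrays lay close together and above every array of the other lines. Cdt1 rose by 1.42 (SE 0.2, 2.68-fold, adjusted p = 0.0346) from SV5 and by 1.12 (adjusted p = 0.0488) from NIH 3T3. Of its other probe sets, one gave 1.28 between SV5-NN4 and SV5 and was called, and one at the floor gave 0.05. Cdc6, the ATPase that works with Cdt1, read 6.23, 4.28 and 4.86 in NIH 3T3, 4.95, 4.44 and 5.49 in SV5 and, in SV5-NN4, 6.54, 5.68 and 7.21. Each SV5-NN4 array was above all SV5 arrays but not above all NIH 3T3 arrays, since NIH 3T3 replicate 1 was high. Its difference from SV5 was 1.52 (SE 0.37, adjusted p = 0.126), the largest of this role, and it was not called.

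Mcm7, a subunit of the helicase ring, was measured at 11.11, 10.41 and 10.93 in NIH 3T3, 11.45, 10.97 and 11.43 in SV5 and, in SV5-NN4, 12.38, 12.13 and 12.37. Every SV5-NN4 array exceeded every SV5 and NIH 3T3 array, and within each pair the order was NIH 3T3, SV5, SV5-NN4. Mcm7 rose by 1.01 (SE 0.13, 2.01-fold, adjusted p = 0.024) from SV5 and by 1.48 (2.79-fold, adjusted p = 0.00719) from NIH 3T3. SV5 itself differed from NIH 3T3 by 0.47 (95% interval 0.17 to 0.77, adjusted p = 0.187). The other 3 probe sets of Mcm7 gave 0.84 to 1.23 between SV5-NN4 and SV5, with 1 called.

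Mcm3, another subunit of the ring, lay at 7.46, 6.04 and 7.9 in NIH 3T3, 7.24, 7.07 and 8.27 in SV5 and, in SV5-NN4, 8.39, 8.0 and 9.58. All arrays of SV5-NN4 were above those of NIH 3T3, but SV5-NN4 replicate 2 was below SV5 replicate 3. The replicate 3 arrays were the highest of each line. Mcm3 rose by 1.52 (SE 0.23, 2.87-fold, adjusted p = 0.0364) from NIH 3T3, and its difference from SV5 was 1.13 (adjusted p = 0.0853). At its 4 other probe sets the difference from SV5 was 0.42 to 0.85, with 2 of the 4 called.

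Orc6, a subunit of the origin recognition complex, showed 7.9, 7.85 and 8.9 in SV5-NN4, 7.36, 7.19 and 8.33 in SV5 and 8.63, 6.33 and 8.03 in NIH 3T3. The lines overlapped, and NIH 3T3 alone spanned 6.33 to 8.63. The difference of SV5-NN4 from SV5 was 0.59 (SE 0.41, adjusted p = 0.702), the smallest of this role. The remaining 7 members, Orc1, Orc2, Gmnn (geminin, the inhibitor of Cdt1), Mcm2, Mcm4, Mcm5 and Mcm6, differed by 0.62 to 1.32 between SV5-NN4 and SV5, and none was called. Gmnn had the largest difference of these 7, with levels of 8.71, 7.04 and 6.98 in NIH 3T3, 7.39, 7.06 and 7.52 in SV5 and, in SV5-NN4, 8.54, 8.23 and 9.16. Its SV5-NN4 arrays were above its SV5 arrays without overlap, and NIH 3T3 replicate 1 lay within the SV5-NN4 range.

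Origin firing genes comprised 5 measured members with a median of 0.98 between SV5-NN4 and SV5. Of the 5, 2 were called, against 0.371% of all genes called higher. Mcm10, which joins the helicase to polymerase alpha, had levels of 8.56, 8.18 and 8.17 in SV5-NN4, 7.57, 7.41 and 7.21 in SV5 and 7.84, 7.4 and 7.18 in NIH 3T3. SV5-NN4 stood above both other lines on every array, and NIH 3T3 and SV5 overlapped. Mcm10 rose by 0.91 (SE 0.12, 1.88-fold, adjusted p = 0.0295) from SV5 and by 0.83 (adjusted p = 0.0316) from NIH 3T3. A second Mcm10 probe set gave 0.53 against SV5 and was not called.

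Gins1, a subunit of the GINS complex in the active helicase, gave 8.05, 6.79 and 7.86 in SV5-NN4, 6.64, 5.26 and 6.39 in SV5 and 6.76, 5.4 and 6.08 in NIH 3T3. In every line replicate 2 was the lowest, and each SV5-NN4 array was the highest of its number, with the lowest of them at 6.79 just above the highest SV5 array at 6.64. Gins1 rose by 1.47 (SE 0.14, 2.77-fold, adjusted p = 0.0112) from SV5, the smallest adjusted p of a member in this comparison, and by 1.49 (adjusted p = 0.0101) from NIH 3T3. The pairs agreed closely, at 1.41, 1.53 and 1.47 against SV5, and without the pairing the adjusted p was 0.904. SV5 differed from NIH 3T3 by 0.02 (95% interval -0.31 to 0.35).

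Cdc45, the third part of the active helicase, read 6.24, 6.66 and 6.34 for SV5, 7.15, 7.32 and 7.71 for SV5-NN4 and 6.24, 6.17 and 6.53 for NIH 3T3. SV5-NN4 lay above both other lines without overlap. Cdc45 rose by 1.08 (SE 0.17, 2.11-fold, adjusted p = 0.0375) from NIH 3T3, while the difference of 0.98 from SV5 missed the threshold (adjusted p = 0.0542). Cdc7, the kinase that fires origins, was at 6.37, 5.01 and 6.33 on the NIH 3T3 arrays, 6.33, 5.37 and 7.16 on those of SV5 and 6.8, 6.09 and 7.83 on those of SV5-NN4. The lines overlapped, with replicate 3 highest and replicate 2 lowest in each of SV5 and SV5-NN4, and the difference between them was 0.62 (SE 0.21, adjusted p = 0.248). Dbf4, its activating subunit, differed by 1.16 (SE 0.45, adjusted p = 0.328) and spanned 5.99 to 8.96 within NIH 3T3. The second probe set of Cdc7, below the median probe set level, gave 0.15, and that of Dbf4, at the floor, gave 0.16.

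**Figure D4:**
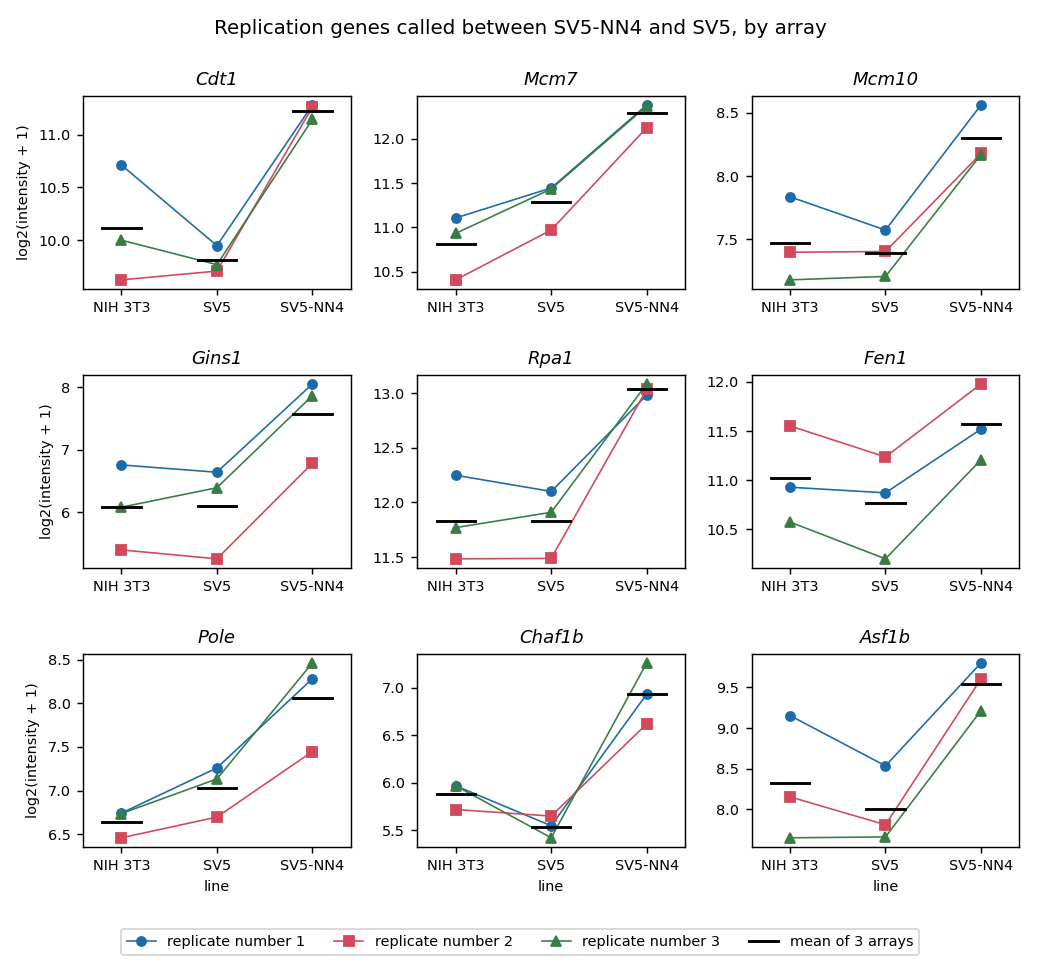
Level of the 9 replication genes called between SV5-NN4 and SV5, as log2(intensity + 1) at the brightest probe set on each of the 9 arrays; lines join arrays of equal replicate number and bars give the mean of 3 arrays. In each panel all 3 joined lines climb from SV5 to SV5-NN4, and panels have their own vertical scale.

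Clamp, clamp loader, single-strand binding and flap genes comprised 10 members with a median of 0.81 between SV5-NN4 and SV5. Of the 10, 2 were called, against 0.371% of all genes called higher. Rpa1, the large subunit of the single-strand binding protein, measured 12.25, 11.48 and 11.77 in NIH 3T3, 12.1, 11.49 and 11.91 in SV5 and, in SV5-NN4, 12.98, 13.04 and 13.09. The SV5-NN4 arrays lay close together and above all others. Rpa1 rose by 1.2 (SE 0.17, 2.3-fold, adjusted p = 0.0356) from SV5 and by 1.2 (adjusted p = 0.0307) from NIH 3T3, and its second probe set gave 1.27 against SV5 without a call. Rpa2, the middle subunit of the same protein, read 5.63, 5.14 and 6.6 on the NIH 3T3 arrays, 5.67, 5.36 and 6.87 on those of SV5 and 6.22, 6.26 and 8.08 on those of SV5-NN4. Replicate 3 was the highest of each line, so the lines overlapped although each pair climbed. Rpa2 rose by 1.07 (SE 0.18, 2.09-fold, adjusted p = 0.0425) from NIH 3T3, and the difference from SV5 was 0.89 (adjusted p = 0.0789). Its second probe set, below the median probe set level, gave 0.18 against NIH 3T3 and 0.22 against SV5, and with its probe sets averaged Rpa2 differed from NIH 3T3 by 0.62 and was not called.

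Fen1, the nuclease that trims Okazaki fragment flaps, stood at 11.52, 11.98 and 11.21 in SV5-NN4, 10.87, 11.24 and 10.2 in SV5 and 10.93, 11.55 and 10.57 in NIH 3T3. Here replicate 2 was the highest of each line and replicate 3 the lowest, and the lines overlapped, with each SV5-NN4 array above the SV5 array of its number. Fen1 rose by 0.8 (SE 0.13, 1.74-fold, adjusted p = 0.0426) from SV5, and its difference from NIH 3T3 was 0.55 (adjusted p = 0.087). Without the pairing its adjusted p was 1 against SV5. Its second probe set gave 0.97 and was not called.

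Rfc1, the large subunit of the clamp loader, was the member with the smallest difference of SV5-NN4 from SV5. Its levels were 6.88, 6.12 and 8.12 in NIH 3T3, 7.29, 6.94 and 8.03 in SV5 and, in SV5-NN4, 7.34, 7.12 and 8.62. All 3 lines overlapped, and replicate 3 was the highest of each. The difference was 0.27 (SE 0.19, 95% interval -0.16 to 0.71, adjusted p = 0.688). The small subunits Rfc2, Rfc3, Rfc4 and Rfc5 differed by 0.66 to 1.11 and the ligase Lig1 by 0.75, all without a call. Pcna, the sliding clamp, read 11.02, 10.29 and 11.19 in SV5-NN4, 10.29, 9.35 and 10.61 in SV5 and 10.93, 7.93 and 9.33 in NIH 3T3. NIH 3T3 spanned 7.92 to 10.93, more than the distance between the line means, and the difference of SV5-NN4 from SV5 was 0.75 (SE 0.43, adjusted p = 0.576).

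Polymerase and primase genes comprised 8 members with a median of 0.77 between SV5-NN4 and SV5. Of the 8, 1 was called, against 0.371% of all genes called higher. Pole, the catalytic subunit of the leading-strand polymerase epsilon, had 6.74, 6.46 and 6.74 in NIH 3T3, 7.26, 6.7 and 7.13 in SV5 and, in SV5-NN4, 8.28, 7.45 and 8.46. Each SV5-NN4 array was above all arrays of SV5 and NIH 3T3. Pole rose by 1.04 (SE 0.16, 2.05-fold, adjusted p = 0.0426) from SV5 and by 1.42 (2.67-fold, adjusted p = 0.0173) from NIH 3T3. SV5 differed from NIH 3T3 by 0.38 (95% interval 0.00 to 0.77, adjusted p = 0.351).

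Pola1, the catalytic subunit of the priming polymerase alpha, lay at 7.68, 6.71 and 7.1 on the NIH 3T3 arrays, 7.5, 6.93 and 7.64 on those of SV5 and 8.4, 7.98 and 8.33 on those of SV5-NN4. SV5-NN4 did not overlap either line. Pola1 rose by 1.08 (SE 0.17, 2.11-fold, adjusted p = 0.0364) from NIH 3T3, and its difference from SV5 was 0.89 (adjusted p = 0.0672). Pold2, an accessory subunit of the lagging-strand polymerase delta, read 6.92, 7.75 and 7.48 on the NIH 3T3 arrays, 7.6, 7.96 and 7.79 on those of SV5 and 8.18, 8.36 and 8.48 on those of SV5-NN4. NIH 3T3 replicate 1 was the lowest array and the SV5-NN4 arrays were above all others. Pold2 rose by 0.96 (SE 0.15, 1.94-fold, adjusted p = 0.0387) from NIH 3T3, with 0.55 against SV5 (adjusted p = 0.162).

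Pola2, the second subunit of polymerase alpha, gave the smallest difference of this role, with levels of 6.91, 6.14 and 7.69 in SV5-NN4, 6.57, 6.06 and 6.65 in SV5 and 6.17, 5.55 and 6.55 in NIH 3T3. Its SV5 and SV5-NN4 arrays overlapped, with replicate 3 of SV5-NN4 well above the rest. The difference between them was 0.49 (SE 0.19, adjusted p = 0.319). The other 4 members, Pold1, Pole2 and the primase subunits Prim1 and Prim2, differed by 0.56 to 0.92 without a call. The largest of these was that of Prim1, which makes the RNA primers.

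Nucleotide supply genes comprised 5 members with a median of 1.13 between SV5-NN4 and SV5. Of the 5, 0 were called, against 0.371% of all genes called higher. In the paired limma fit 4 were higher at an unadjusted p under 0.05 (7.32% of all genes). Without the pairing 0 were called (0.00807% of all genes called higher). Rrm2, the regulatory subunit of ribonucleotide reductase, had levels of 10.65, 10.37 and 10.36 for SV5, 11.96, 12.03 and 11.6 for SV5-NN4 and 12.07, 10.74 and 10.13 for NIH 3T3. The SV5-NN4 arrays were above the SV5 arrays without overlap, and NIH 3T3 replicate 1 was the highest of all 9. The difference from SV5 was 1.41 (SE 0.32, 2.65-fold, adjusted p = 0.104). Rrm1, the catalytic subunit of the same enzyme, read 9.0, 8.36 and 9.6 in SV5-NN4, 8.03, 7.22 and 8.32 in SV5 and 8.21, 6.13 and 8.06 in NIH 3T3. SV5-NN4 lay above SV5 by a narrow margin, with 8.36 on its lowest array against 8.32 on the highest SV5 array, and NIH 3T3 replicate 2 was far below the rest. Rrm1 rose by 1.52 (SE 0.26, 2.87-fold, adjusted p = 0.0456) from NIH 3T3, and differed by 1.13 (adjusted p = 0.111) from SV5, but its second probe set gave 0.01 against SV5 and 0.11 against NIH 3T3.

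Tk1, the thymidine kinase of the salvage route, gave 8.45, 7.59 and 7.73 in NIH 3T3, 8.03, 7.98 and 8.39 in SV5 and, in SV5-NN4, 9.09, 9.31 and 9.8. Every SV5-NN4 array was above every array of both other lines. Tk1 rose by 1.48 (SE 0.26, 2.79-fold, adjusted p = 0.0461) from NIH 3T3, and its difference from SV5 was 1.27 (adjusted p = 0.082). Tyms, thymidylate synthase, was near the floor at 4.53, 4.59 and 4.99 on the NIH 3T3 arrays, 4.83, 4.59 and 5.03 on those of SV5 and 4.69, 4.64 and 6.23 on those of SV5-NN4. Replicate 3 of SV5-NN4 alone stood apart, and the difference from SV5 was 0.37 (SE 0.27, adjusted p = 0.714). Dut, the phosphatase that removes dUTP, differed by 1.05 (SE 0.45, adjusted p = 0.384) and spanned 4.68 to 7.76 within NIH 3T3. A second Dut probe set, below the median probe set level, gave 0.22.

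Both measured chromatin assembly genes were called between SV5-NN4 and SV5, against 0.371% of all genes called higher. Asf1b, a chaperone that hands histones H3 and H4 to new DNA, had 9.15, 8.15 and 7.65 on the NIH 3T3 arrays, 8.53, 7.81 and 7.66 on those of SV5 and 9.8, 9.61 and 9.22 on those of SV5-NN4. SV5-NN4 was above the other lines on every array, and replicate 1 was the highest of each line. Asf1b rose by 1.54 (SE 0.19, 2.91-fold, adjusted p = 0.0234) from SV5, the largest difference of the set, and by 1.22 (adjusted p = 0.0387) from NIH 3T3. Chaf1b, a subunit of the chromatin assembly factor that Pcna recruits, read 5.97, 5.72 and 5.97 on the NIH 3T3 arrays, 5.55, 5.65 and 5.42 on those of SV5 and 6.94, 6.62 and 7.26 on those of SV5-NN4. The lines did not overlap at all, with SV5 lowest and SV5-NN4 highest. Chaf1b rose by 1.4 (SE 0.17, 2.64-fold, adjusted p = 0.0234) from SV5 and by 1.05 (adjusted p = 0.0412) from NIH 3T3. SV5 was below NIH 3T3 by 0.35 on the log2 scale (95% interval of SV5 minus NIH 3T3 -0.75 to 0.06, adjusted p = 0.416).

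The 34 other probe sets of the members gave a median of 0.55 between SV5-NN4 and SV5, with 33 above 0 and 4 called, where 0.309% of all 22690 probe sets were called higher. Among the 22 at or above the median probe set level, the median was 0.77 with 22 above 0 and 4 called, and among the 12 below it the median was 0.21 with 0 called. Probe sets with the suffix s or x can also hybridise to other transcripts, and the brightest probe sets of Mcm2, Mcm3, Mcm4, Mcm6, Mcm7, Rfc4, Fen1, Pold1 and Rrm2 carry one, as do 3 other probe sets of Mcm3 and Mcm7. Between SV5 and NIH 3T3 the 34 had a median of 0.13, a range of -0.60 to 1.35 and 0 called (0.0441% of all probe sets called higher), and between SV5-NN4 and NIH 3T3 a median of 0.67 and 11 called (1.14% of all probe sets).

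Lists of related genes outside the set had smaller median differences between SV5-NN4 and SV5 than the 0.90 of the members. Of all genes, 52.2% were above 0 and 0.371% were called higher. At an unadjusted p under 0.05 in the paired limma fit, 7.32% of all genes were higher and 7.33% lower. Among 26 other origin, fork and polymerase genes the median was 0.36, with 19 above 0 and 0 called, although 10 had an unadjusted p under 0.05 in limma, all of them higher. Histone chaperones had a median of 0.36 over 10 genes with 0 called (4 higher at an unadjusted p under 0.05), and E2F and retinoblastoma family regulators 0.22 over 13 genes with 0 called (3 higher and 1 lower). Without the pairing 0 of each list were called. The differences ran from -0.405 to 1.119 (Chtf18) in the origin, fork and polymerase list. They ran from -0.196 to 1.178 (Hells) for the chaperones and from -0.583 to 1.190 (Rbl1) for the regulators. Whether these lists differ from the members was not tested, and the lists do not hold every cell cycle gene.

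Among 19 other nucleotide supply genes the differences ran from -0.18 to 1.67. The highest was that of Dck, which exceeded the 1.54 of Asf1b, the largest of the members, and was not called. In the paired limma fit 9 were higher and 0 lower at an unadjusted p under 0.05, against 7.32% of all genes higher. The median was 0.43, with 16 above 0 and 1 called. This was Shmt2, the mitochondrial enzyme that passes carbon from serine to folate, which read 10.08, 10.19 and 10.49 in SV5-NN4, 9.23, 8.69 and 9.02 in SV5 and 9.59, 9.59 and 9.39 in NIH 3T3. Its SV5-NN4 arrays were the highest and its SV5 arrays the lowest, without overlap, and Shmt2 rose by 1.27 (SE 0.18, adjusted p = 0.034) from SV5. Among 27 cyclins, cell cycle kinases, their inhibitors and related genes, the differences ran from -0.49 for Ccnd3 to 1.45 for Aurkb. Aurkb was not called. In the same fit 12 were higher and 1 lower at an unadjusted p under 0.05, against 7.32% of all genes higher. The median was 0.57, with 19 above 0 and 1 called. This was Aurka, a kinase of spindle assembly, with 6.49, 5.66 and 6.78 in NIH 3T3, 6.49, 5.92 and 6.78 in SV5 and, in SV5-NN4, 7.74, 7.12 and 8.51. SV5-NN4 was again above the rest without overlap, and Aurka rose by 1.39 (SE 0.15, adjusted p = 0.0141) from SV5 and by 1.48 (adjusted p = 0.0112) from NIH 3T3. Between SV5-NN4 and NIH 3T3 the genes called in these lists, named after their values were seen, were Mcmbp, Wdhd1 and Tipin of the fork list, Gart of the nucleotide list, and Ccnb2, Plk1, Aurka, Bub1b and Top2a of the cyclin list, all higher. Without the pairing none of these calls remained, with adjusted p of 0.126 for Shmt2 and 0.732 for Aurka against SV5, and of 0.444 to 1 for the 9 genes against NIH 3T3. Between SV5 and NIH 3T3 none of the 5 lists had a called gene in limma, with 0 to 2 genes higher and 0 to 2 lower per list at an unadjusted p under 0.05.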

How the data were processed

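RNA of 3 mouse lines, NIH 3T3, SV5 and SV5-NN4, was hybridised to Affymetrix oligonucleotide arrays, 3 per line. The authors deposited 1 intensity per probe set and array on a linear scale, and RMA, which corrects background, normalizes arrays and summarises probes, is named per the submitters' processing notes without a version or settings; such a step hides changes that most transcripts share. Intensities were used as log2(intensity + 1), which slightly understates differences of dim probe sets. Of 22690 probe sets, 20380 had 1 gene symbol, 691 several and 1619 none, control probe sets among them; names come from GEO's platform annotation. Of a gene's probe sets the brightest, by mean over the 9 arrays, was used, and levels were not compared between genes.

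Groups and replicate numbers came from the sample titles. Two-sided tests used limma 3.58.1 in R 4.3.3 (lmFit, contrasts.fit, eBayes) on all 22690 probe sets and 9 arrays. The replicate number was a block, and Benjamini-Hochberg adjustment was made per comparison. The fit was also run on simulated arrays to check that it returned differences of a set size. Replicate effects were built into those arrays, so that run does not test the pairing. Equal replicate numbers were paired because the choice of this gene set asked for it, and no label states the pairing. Deviations from line means correlated at 0.261 to 0.845 over all probe sets in the 9 same-numbered array pairs and at -0.726 to 0.114 in the 18 others. Such deviations cancel within a line, so positive values in same-numbered pairs push the others negative, and the contrast is partly built in. No label says that replicates are separate cultures; the p-values then reflect only how far these arrays differ, and that difference may be technical.

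Array values with tests are given for members called in any comparison and for those with the largest and smallest difference between SV5-NN4 and SV5 in each role; a few other members and the other genes called were named after their values were seen. The members, lists and tests were chosen with earlier results of these data known. The alternatives were no replicate block, the compared lines only, arrays centred on their medians, quantile normalization, a pseudocount of 16, brighter probe sets only, an intensity trend, robust eBayes, averaged probe sets per gene, and each array left out.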

Additional observations from a re-analysis of the deposited data

How the results depend on the processing

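Between SV5-NN4 and SV5 the count of called members was 9, where 0.371% of all genes were called higher. It was 0 without the replicate block (0.00807% of all genes), 34 with only the lines compared (3.70%), and 0 to 28 without one array (0% to 2.44%). A pseudocount of 16 gave 6 (0.258%), as did an intensity trend (0.242%). Centred arrays (0.363%), quantile normalization (0.484%) and robust eBayes (0.363%) each gave 9. Averaged probe sets gave 11 (0.533%), and brighter probe sets only gave 11 of 38 members (1.01% of the genes kept). Between SV5-NN4 and NIH 3T3 the count was 15 (1.27% of all genes called higher). It was 0 without the replicate block and 0 with only the lines compared (0.00807% in each case). Without one array it was 0 to 32 (0.00807% to 4.12%), and in the other settings 10 to 20 (0.847% to 2.58%). Of the 9 settings other than leaving out an array, 3 kept the call of Cdt1, 3 that of Rrm1 and 4 that of Tk1. These were the fewest among the 15, and each of these calls was kept in 1 of 9 fits without one array. Between SV5 and NIH 3T3 the count was 0 in all settings but one. It was 1 (Pcna) when NIH 3T3 replicate 1 was left out (0.153% of all genes called higher). The fit without the block keeps replicate differences in its spread (median SE of the members 0.394, against 0.226 in the paired fit); the cause of the other changes was not tested. The median difference of the members was 0.76 to 1.06 between SV5-NN4 and SV5 and 0.89 to 1.26 between SV5-NN4 and NIH 3T3 in the settings run, and -0.06 to 0.32 between SV5 and NIH 3T3. Changes of sign were traced for 23 members, those called in any comparison or with the largest or smallest SV5-NN4 minus SV5 difference of their role. Some uncalled differences of these members changed sign. With averaged probe sets 32 of 42 members were above 0 between SV5 and NIH 3T3, against 27 at the brightest probe sets, so members not traced changed sign too. Between SV5 and NIH 3T3, Rpa1 was 0.007 with arrays centred on their medians, and Mcm10 was 0.022, Rpa1 0.281 and Fen1 0.095 with averaged probe sets. With one array left out, the same comparison ran from -0.498 to 0.595 for Orc6, -0.615 to 0.374 for Cdc6, -0.090 to 0.152 for Rpa1, -0.076 to 0.270 for Cdc45, -0.130 to 0.099 for Gins1, -0.061 to 0.334 for Tyms and -0.052 to 0.574 for Tk1, and SV5-NN4 minus SV5 from -0.024 to 0.578 for Tyms. With 3 arrays per line, 1 clone per genotype and dim signals for Orc1, Cdc6, Rfc3 and Tyms, small differences were not detectable.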

Other observations

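The replication genes also varied with the replicate number. Lines accounted for 50.4% of the variance of the 42 members over the 9 arrays and replicate numbers for 35.6%, against 23.2% and 59.9% over all genes. The median SD of a member over 3 arrays was 0.56 for NIH 3T3, 0.32 for SV5 and 0.44 for SV5-NN4. The widest spread within a line was that of Dut in NIH 3T3 (SD 1.59, n = 3), followed by Dbf4 (1.52) and Pcna (1.5), each lowest on replicate 2.

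By role, the average member on NIH 3T3 replicate 2 stood below its mean over the 9 arrays by different amounts: -1.19 for nucleotide supply, -1.11 for origin firing, -0.90 for the clamp, loader and binding genes, -0.86 for origin recognition and loading, -0.75 for polymerases and primase, and -0.43 for chromatin assembly. On SV5-NN4 replicate 3 the same averages were 1.22, 1.22, 1.14, 1.0, 0.75 and 0.87. Chromatin assembly genes were lowest on SV5 replicate 3, at -0.83, where the other roles averaged -0.14 to 0.11.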
